A study of Mus musculus with 2 samples.

Results

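The annexins of the mouse mammary gland were followed in sorted luminal epithelial cells with and without the microRNA cluster of miR-200c and miR-141. The genes described are 10 members of the family, Anxa1 to Anxa9 and Anxa11, taken by symbol from a table of 16906 genes. The family was chosen by the values of Anxa8, which was low in the knockout library, so the ratio of Anxa8 is a description and supports nothing. Both groups carried the floxed cluster and were injected with tamoxifen. The control group (Ctrl) was miR-200c/141-flox/flox. The knockout group (CKO) was K8-CreERT2;miR-200c/141-flox/flox, in which a tamoxifen-inducible Cre is driven by the keratin 8 promoter of luminal cells. Effects of the Cre driver and of the deletion cannot be told apart, since Ctrl has no Cre. Mice were C57BL/6 and 8 weeks old, and about 20000 luminal cells were sorted. The labels place the harvest 4 weeks after tamoxifen in one field and 3 days in another. There was 1 library per group, the number of animals behind each is not given in the sources used here, and no difference below has a replicate check or a p-value of its own.

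Annexins are proteins that bind membranes rich in acidic phospholipids, such as phosphatidylserine, when calcium rises. Each has a conserved core of annexin repeats that carries the calcium sites, and a variable amino terminus that binds partners such as S100 proteins. In epithelia they take part in vesicle traffic, membrane repair, links between membrane and actin, and the control of inflammation and of plasmin formation at the cell surface. MicroRNAs of the miR-200 family lower messenger RNAs whose 3' untranslated region pairs with the seed, bases 2 to 8 of the microRNA.

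The mature microRNAs are printed because their seeds define which annexin transcripts could pair with them. Sequences are from RefSeq (GRCm38.p6), 5' to 3', with the seed in capitals. The first 2 lie in the deleted cluster, on the minus strand at chr6:124718324-124718346 and chr6:124717917-124717938, and the other 3 are relatives on chromosome 4, outside the deletion.
miR-200c-3p: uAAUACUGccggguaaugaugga
miR-141-3p: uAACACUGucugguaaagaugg
miR-200b-3p: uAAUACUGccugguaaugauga
miR-429-3p: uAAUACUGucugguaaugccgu
miR-200a-3p: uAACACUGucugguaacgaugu
The seed AAUACUG is shared by miR-200c-3p, miR-200b-3p and miR-429-3p, and the seed AACACUG by miR-141-3p and miR-200a-3p. On a transcript these seeds pair with CAGTATT and CAGTGTT. None of the 10 annexins had either 7-base match in its longest annotated 3' untranslated region (sense strand, GENCODE M21). Among 16190 genes of the table with such a region of at least 30 bases, 15% held CAGTATT, 20.2% held CAGTGTT and 29.4% held at least 1 of them. The annexin regions ran from 290 bases for Anxa2 to 1972 for Anxa4, and that of Anxa8 had 821, against a median of 1254 over those genes. The absence of these letters says nothing of shorter or imperfect pairing, or of sites elsewhere in a transcript.

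Annexin transcripts took up 0.317% of the Ctrl reads and 0.368% of the CKO reads, summed over the 10 genes. Estimated from the deposited p-values, the Ctrl library had about 12500000 reads and the CKO library 11500000. Levels are in FPKM, fragments scaled to transcript length and to library size, so that they can be compared between genes. Ratios are CKO over Ctrl on a log2 scale after adding 0.5 FPKM to each value. The interval beside a ratio is an exact binomial one (Clopper-Pearson, 95%) computed on the reads, without the added 0.5 FPKM. The interval on a level is an exact Poisson one, also at 95%. Both cover only the error of counting, and PCR copies of a molecule are not independent counts.

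**Figure D1:**
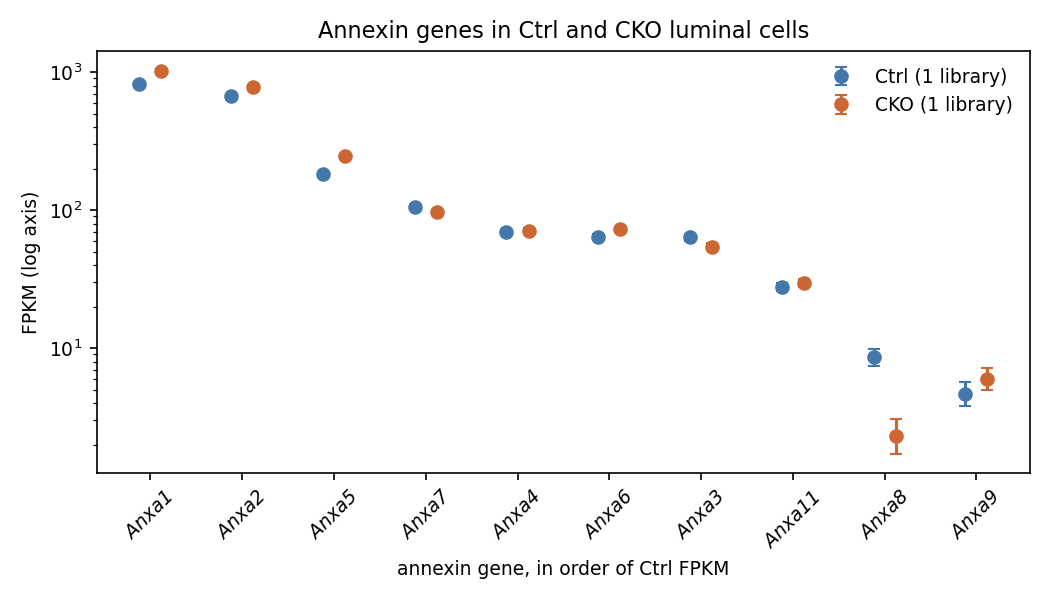
FPKM of each annexin gene (log axis) in the Ctrl library and in the CKO library, in order of the Ctrl level, with bars for the 95% Poisson counting interval (smaller than the point for abundant genes). Anxa8 is at 8.59 in Ctrl and 2.32 in CKO, and is the 1 gene whose points lie far apart.

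Anxa1 and Anxa2 were the most abundant annexins in both libraries and both were somewhat higher in CKO. Anxa1, known as an anti-inflammatory protein that signals through formyl peptide receptors, was at 827.37 FPKM in Ctrl and at 1021.93 in CKO. Its log2 ratio was 0.30 (0.27 to 0.34). Anxa2, which joins S100a10 in a tetramer that binds plasminogen and its activator at the cell surface, was at 677.54 and 779.28 FPKM. Its log2 ratio was 0.20 (0.17 to 0.24). By reads, Anxa1 made up 36.4% of the family in Ctrl and 38.8% in CKO, and Anxa2 29.5% and 29.2%. These 2 genes thus held most annexin reads in either library, and their order by level was the same in both.

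Anxa5, the phosphatidylserine binder used as a probe for dying cells, had the highest ratio of the family. It was at 183.73 FPKM in Ctrl and at 247.42 in CKO, a log2 ratio of 0.43 (0.37 to 0.49). Of the 11667 genes with a mean of at least 1 FPKM over both libraries, 4.47% had a higher ratio. Anxa5 was thus under 1.5-fold, and it made up 10.1% of the annexin reads in Ctrl and 11.7% in CKO.

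The annexins of intermediate level were close between the libraries. Anxa6, a member with a doubled core that is linked to endosomes and cholesterol handling, was at 64.3 FPKM in Ctrl and at 72.64 in CKO, a log2 ratio of 0.17 (0.09 to 0.26). Anxa4, which lies near the apical membrane of secretory epithelia, was at 69.1 and 71.15 FPKM, with a log2 ratio of 0.04 whose interval (-0.06 to 0.14) held 0. Anxa11, which has a long amino terminus that binds the calcium sensor Pdcd6, was at 27.8 and 29.8 FPKM, with a log2 ratio of 0.10 (-0.04 to 0.24). The differences of Anxa4 and Anxa11 were thus not detectable at this depth.

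Anxa3 and Anxa7 lay slightly on the other side, lower in CKO. Anxa3, known from neutrophil granules and as a marker in several carcinomas, was at 63.55 FPKM in Ctrl and at 54.4 in CKO, a log2 ratio of -0.22 (-0.34 to -0.10). Anxa7, also called synexin and known for promoting membrane fusion, was at 106.21 and 97.01 FPKM, with a log2 ratio of -0.13 (-0.20 to -0.06). Both intervals excluded 0, but 20.9% of the 11667 genes had a lower ratio than Anxa3 and 32.7% a lower ratio than Anxa7.

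Anxa8 and Anxa9 were the scarcest annexins and lay on opposite sides. Anxa8, an annexin of late endosomes and actin that is restricted to a few epithelia, was at 8.59 FPKM in Ctrl (7.43 to 9.86) and 2.32 in CKO (1.71 to 3.05), from about 199 and 49 reads. The plain FPKM was 3.70-fold lower in CKO, and the log2 ratio was -1.69 after adding 0.5 FPKM and -1.89 without it (-2.38 to -1.44). Anxa9, an atypical annexin whose core lacks working calcium sites, was at 4.66 FPKM in Ctrl (3.82 to 5.66) and 6 in CKO (4.97 to 7.14), from about 105 and 123 reads. Its log2 ratio of 0.33 came with an interval (-0.03 to 0.75) that held 0. The level of Anxa8 was 1.84 times that of Anxa9 in Ctrl and 0.387 times in CKO, so the order of these genes differed between the libraries and their Poisson intervals did not overlap in either. Anxa8 made up 0.502% of annexin reads in Ctrl and 0.117% in CKO.

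The order of levels was otherwise nearly the same in both libraries. Anxa1, Anxa2, Anxa5 and Anxa7 held ranks 1 to 4, and Anxa3 and Anxa11 ranks 7 and 8, in each. Anxa4 and Anxa6 changed places at ranks 5 and 6. In Ctrl the Poisson intervals of Anxa4 (65.8 to 72.5 FPKM), Anxa6 (61.6 to 67.1) and Anxa3 (60.1 to 67.1) overlapped, so their order is not resolved. In CKO the intervals of Anxa6 (69.7 to 75.7) and Anxa4 (67.7 to 74.8) overlapped, while Anxa3 (51.1 to 57.8) lay below both. The level of Anxa1 was 96.3 times that of Anxa8 in Ctrl and 440.5 times in CKO.

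**Figure D2:**
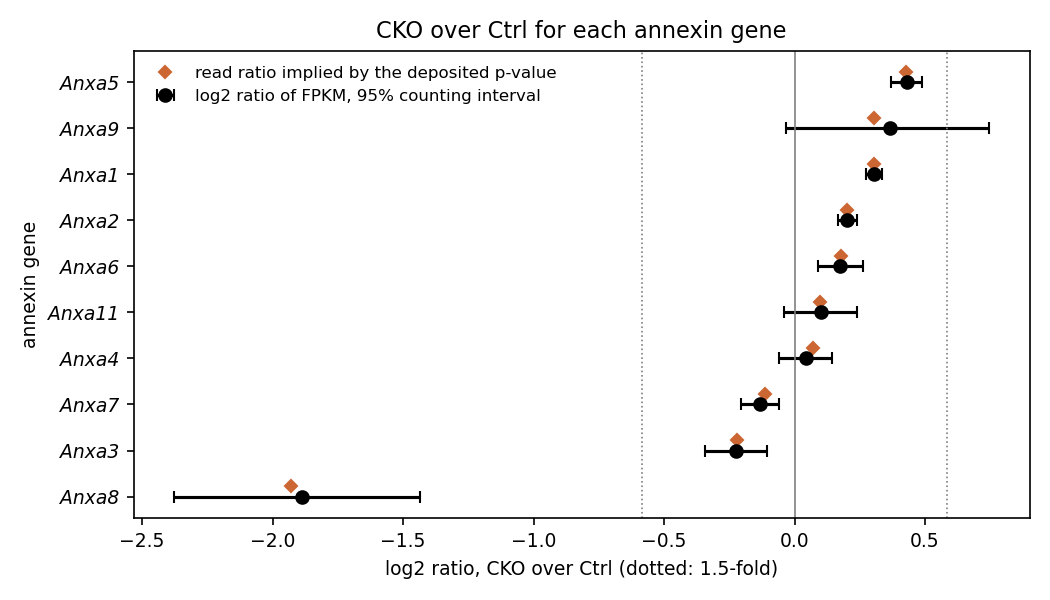
Log2 ratio of the FPKM, CKO over Ctrl with nothing added, for each annexin gene, with its 95% counting interval, and the read ratio implied by the authors' deposited p-value as a diamond. Dotted lines mark 1.5-fold, and Anxa8 at -1.89 is the 1 gene beyond them.

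Across the family, 7 members had a log2 ratio above 0 and 3 below. The counting interval lay above 0 for 4 members (Anxa1, Anxa2, Anxa5 and Anxa6), below 0 for 3 (Anxa3, Anxa7 and Anxa8) and held 0 for 3. The share of all genes whose interval excludes 0 was not computed, so nothing about the family is read from these counts. All 10 members had a mean of at least 1 FPKM, and at that minimum 0 were higher in CKO by 1.5-fold or more and 1, Anxa8, was lower. Over all 11667 genes at the same minimum, 2.47% were higher by 1.5-fold or more and 3.15% lower by as much. At 2-fold with 5 FPKM or more in whichever library was higher, which all 10 members reached, Anxa8 was again the 1 member lower, against 0.349% of 8870 genes. Nothing is read from these shares for Anxa8, whose ratio led to the choice of the family. The median log2 ratio of the members was 0.14, beside -0.03 over the 11667 genes and 0.02 over the 3691 of them in the length range of the members, 1379 to 2652 bases.

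**Figure D3:**
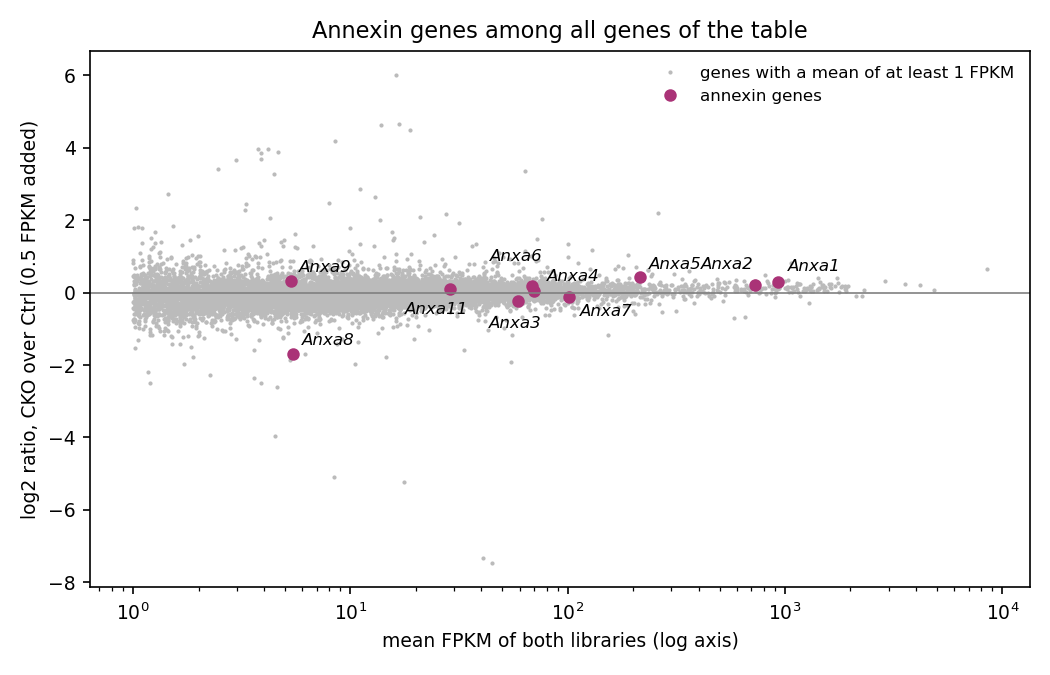
Log2 ratio, CKO over Ctrl after adding 0.5 FPKM, against the mean FPKM of both libraries (log axis) for 11667 genes in grey and the 10 annexins in purple. Anxa8 at -1.69 lies below nearly all genes of its level, and the other 9 run from -0.22 for Anxa3 to 0.43 for Anxa5.

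Anxa8, whose ratio led to the choice of the family, lay far down among all genes as well as within the family. Its places given here are therefore a description and support nothing. Of the 11667 genes, 18 had a lower log2 ratio. Of 3852 genes whose mean FPKM was within 2-fold of that of Anxa8, 135 were at least 1.5-fold lower in CKO and 9, Anxa8 included, were as low as Anxa8 or lower. In the authors' deposited table Anxa8 is the 1 member with a call, Down, which 0.639% of the 16906 genes have (Up, 0.615%), at a false discovery rate of 7.47e-19 from a test of the 2 libraries' reads. The deposited false discovery rate in the authors' table was 9.16e-74 for Anxa1, 6.93e-25 for Anxa2 and 1.76e-42 for Anxa5, all without a call. That test compares libraries and not conditions, and with abundant genes it reaches such values at small ratios.

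The 5 genes most like Anxa8 over the 2 libraries, by Euclidean distance of log2(FPKM + 0.5), had values that start and end near it. Gm12873, described as resembling a palmitoyl-protein thioesterase gene, was nearest (distance 0.17), at 8.52 FPKM in Ctrl and at 2 in CKO. The gene of an RNA-modifying enzyme, Cdk5rap1, stood at 9.71 and 2.63 FPKM (distance 0.23). Foxi1, a forkhead transcription factor gene of ionocytes, was at 7.08 and 2.67 FPKM (distance 0.31). The endophilin gene Sh3gl3 was at 7.05 and 2.72 FPKM, and the cytidine deaminase gene Cda at 7.23 and 3.04. With 2 libraries such likeness reflects a level and a ratio and nothing more.

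Anxa8 lies on chromosome 14 at 34085979 to 34100571 (GRCm38), on the plus strand. The gene A630023A22Rik on the minus strand spans it, shares 0 exon bases with it and was at 0.48 FPKM in Ctrl and at 0.33 in CKO. Whether the library kept strand is not given in the sources used here. Of 15 other genes of the table whose middle lies within 500 kb of that of Anxa8, 9 had a mean of at least 1 FPKM, of which 2 passed 1.5-fold higher and 0 lower after adding 0.5 FPKM. On plain FPKM, a comparison chosen after the data were seen, 3 were higher and 1 lower: Mmrn2 (1.03 FPKM in Ctrl, 1.77 in CKO) also passed upward, and Fam35a (1.78 and 1.15 FPKM) passed downward at 1.55-fold. The read interval of Fam35a, -1.17 to -0.08, lay below 0. The median log2 ratio of these 9 was -0.20 with 0.5 FPKM added. Over all 11667 genes, 2.47% passed higher and 3.15% lower with 0.5 FPKM added, and 3.21% and 4.75% on plain FPKM.

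**Figure D4:**
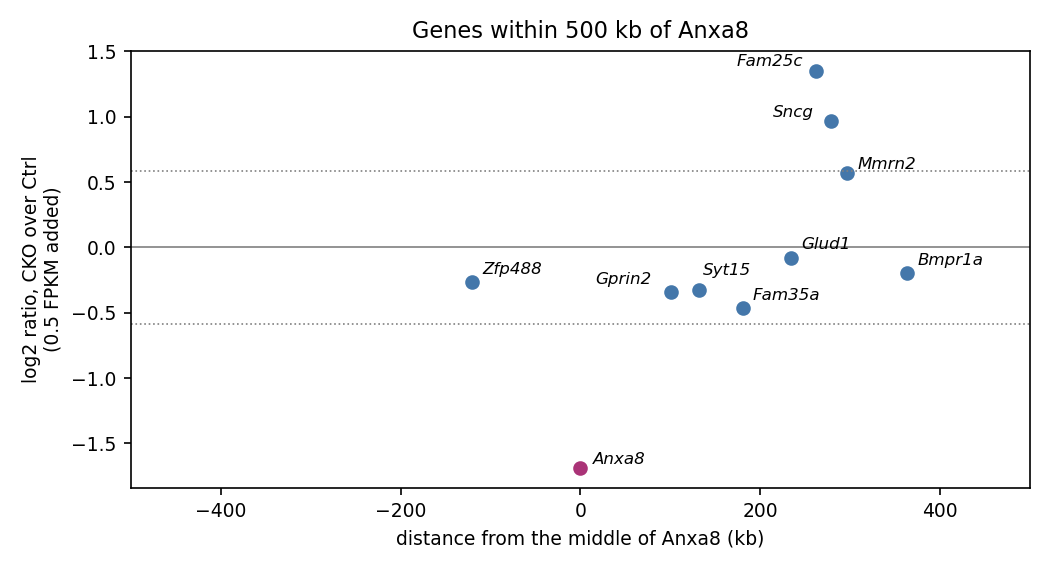
Log2 ratio, CKO over Ctrl after adding 0.5 FPKM, of Anxa8 (purple) and of the 9 measured genes within 500 kb (blue), against the distance from the middle of Anxa8 in kb; dotted lines mark 1.5-fold. Anxa8 is the 1 gene below the lower line, and Fam25c and Sncg lie above the upper one.

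The nearest measured neighbours of Anxa8 were lower in CKO by less than Anxa8 was. Zfp488, a zinc finger gene 120 kb away, was at 36.06 FPKM in Ctrl and at 29.86 in CKO. Gprin2, on the other side at 100.4 kb, was at 1.97 and 1.45 FPKM, with a log2 ratio of -0.34, while its deposited p-value implies -0.97 in reads. Fam25c, 262 kb away, ran the opposite way, at 20.98 FPKM in Ctrl and at 54.38 in CKO, a log2 ratio of 1.35 (1.03 to 1.74). Sncg, the synuclein gamma gene 279 kb away, was at 2.08 and 4.54 FPKM, from about 20 and 39 reads. Around the other 9 annexins, 0 of 88 measured genes within 500 kb passed 1.5-fold in either direction after adding 0.5 FPKM, and Anxa1 had no measured neighbour. On plain FPKM 2 of the 88 were higher, Sparc and Ctss, and 2 lower, Aak1 and Gm128, of which Gm128 differed most, at 1.56-fold. These counts stand beside shares of 3.21% higher and 4.75% lower over all genes on plain FPKM. The read intervals of Gm128 (-1.51 to 0.20) and Ctss (-0.13 to 1.39) held 0. Those of Sparc (0.44 to 0.75) and Aak1 (-0.84 to -0.38) did not.

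The other annexins are spread over the genome. Anxa7 and Anxa11 share chromosome 14 with Anxa8, at 20455261 to 20480133 and 25842127 to 25886804, and had ratios near 0. Anxa5 and Anxa9 lie on chromosome 3, at 36448923 to 36475887 and 95296093 to 95315180. Anxa4, at 86736840 to 86793634, lies on chromosome 6, which also holds the deleted cluster. Anxa3 is on chromosome 5 (96793385 to 96845968), Anxa2 on chromosome 9 (69453683 to 69491792), Anxa6 on chromosome 11 (54978953 to 55033471) and Anxa1 on chromosome 19 (20373434 to 20390671). Anxa9 shares 71 exon bases with Fam63a on the opposite strand, a gene at 20.73 and 18.85 FPKM, so without strand some reads there cannot be assigned.

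Further annexin loci were scarcely expressed. Anxa13, an intestinal annexin, was at 0.06 FPKM in both libraries, from 1 read each, and no gene was listed under the symbol Anxa10. Gm2260 and Gm2274, pseudogenes on chromosome 14 described as annexin A11-like, had identical values of 0.35 FPKM in Ctrl and at 0.74 in CKO. Reads of near-identical copies may be split between them and Anxa11. With both copies added, an alternative chosen after the data were seen, the log2 ratio of Anxa11 was 0.13 instead of 0.10.

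Genes whose products work with annexins were mostly near their Ctrl level. Of 69 genes in 6 lists, 66 were in the table and 50 had a mean of at least 1 FPKM, of which 2 were at least 1.5-fold higher and 2 lower. Their median log2 ratio was -0.01, beside -0.03 over all genes. At 2 of 50 in each direction, the shares are near the 2.47% and 3.15% over all genes.

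**Figure D5:**
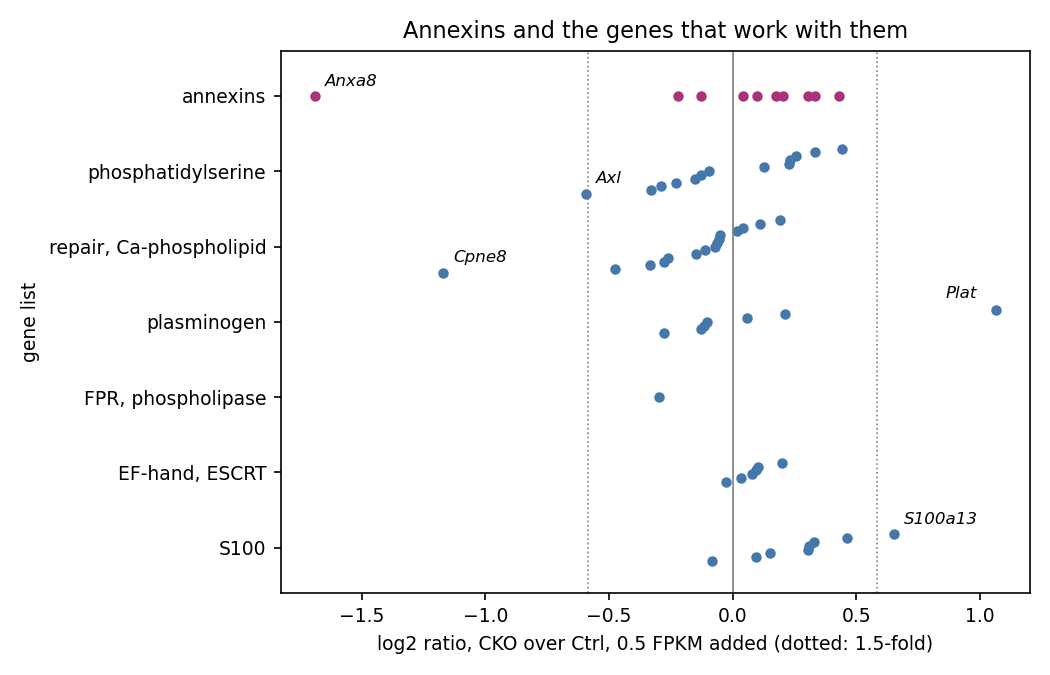
Log2 ratio, CKO over Ctrl after adding 0.5 FPKM, of the measured genes of 6 lists of annexin partners (blue, 1 point per gene, spread vertically within a list to separate points) and of the 10 annexins (purple); dotted lines mark 1.5-fold. S100a13 and Plat lie above 1.5-fold, and Axl, Cpne8 and Anxa8 below.

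S100 proteins are small proteins, many of them calcium sensors, and some members clamp pairs of annexins together. Of 8 measured, 1 was higher, S100a13, a partner in the export of growth factors that lack a signal peptide, at 34.59 FPKM in Ctrl and at 54.59 in CKO. The list had a median log2 ratio of 0.31, beside -0.03 over all genes, and 7 of 8 ratios were above 0. These 8 genes are short, from 504 bases for S100a11 to 1086 for S100a16. Genes of that length were not compared, and the share of all genes above 0 was not computed. S100a10, the partner of Anxa2, was at 339.27 and 420.21 FPKM, and its level was 0.501 times that of Anxa2 in Ctrl and 0.539 times in CKO. S100a11, the partner of Anxa1, was at 1094.55 and 1169.39 FPKM, and Anxa1 stood at 0.756 and 0.874 times its level. S100a6 was at 645.33 and 809.73 FPKM. These 3 partners were as abundant in order of magnitude as Anxa1 and Anxa2.

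Calcium sensors and trafficking partners outside the S100 family showed 0 genes past 1.5-fold among 6 measured, with a median of 0.09. Pdcd6ip was the most abundant of these 6, at 66.68 FPKM in Ctrl and at 68.17 in CKO. Pdcd6, the partner of Anxa11, was at 54.8 FPKM in Ctrl and at 63.02 in CKO. Sri, the sorcin that binds Anxa7, was at 34.12 and 36.07 FPKM. Of the formyl peptide receptors, through which Anxa1 acts, Fpr1 was at 0.12 and 0.27 FPKM and Fpr2 at 0.06 and at the table's lowest value of 0.01, with 4 reads or fewer in any library. The phospholipase Pla2g4a, whose activity annexins restrain, was at 5.65 and 4.5 FPKM.

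The plasminogen system had 1 gene higher among 7 measured. Plat, the tissue plasminogen activator that binds the complex of Anxa2 and S100a10, was at 10.28 FPKM in Ctrl and at 22.02 in CKO, a log2 ratio of 1.06 (0.91 to 1.29). The urokinase gene Plau was at 57.11 and 52.15 FPKM and its receptor gene Plaur at 191.53 and 199.26. The list had a median of -0.10, so Plat stood apart from the other 6.

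Among genes of membrane repair and calcium-dependent phospholipid binding, 15 measured, 0 were higher and 1 lower. Cpne8, a copine with paired C2 domains that bind phospholipid when calcium rises, was at 76.7 FPKM in Ctrl and at 33.81 in CKO, a log2 ratio of -1.17 (-1.36 to -1.01). The deposited p-value implies a smaller read difference for Cpne8, -0.98 on the log2 scale. Capns1, the most abundant gene of the list, was at 347.31 FPKM in Ctrl and at 375.43 in CKO. The repair scaffold Ahnak, which binds Anxa2 and S100a10, was at 261.27 and 215.49 FPKM, and the ferlin gene Myof at 26.41 and 25.23.

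Genes that expose or recognise phosphatidylserine, the lipid that annexins bind, had 13 measured members, with 0 higher and 1 lower. Axl, a receptor for phosphatidylserine bound to Gas6, was at 5.64 FPKM in Ctrl and at 3.57 in CKO, a log2 ratio of -0.59 just past 1.5-fold. The milk fat globule gene Mfge8, whose product bridges phosphatidylserine to integrins, was the most abundant, at 764.89 and 912.28 FPKM. The scramblase gene Ano6 was at 68.12 and 61.18 FPKM.

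Markers of cell types in the sort were read beside these values, since annexins are made by many cells and a bulk library cannot tell fewer cells of a type from less RNA per cell. All 7 luminal markers were present, with summed levels of 14175 FPKM in Ctrl and at 18988 in CKO; 1, Krt18, was higher by 1.5-fold or more and 0 lower. Krt18, at 6606.79 FPKM in Ctrl and at 10398 in CKO, carried most of the rise in that sum, while Epcam was at 1189.5 and 1232.98 FPKM. Of 8 luminal progenitor and alveolar markers 0 were higher and 1, Trf, lower, with sums of 3102 and 3113 FPKM. Of 7 hormone-sensing markers 1, Ly6a, was higher and 1, Prom1, lower, with sums of 679 and 702 FPKM. Their median log2 ratio was -0.19. Ly6a, at 138.17 FPKM in Ctrl and at 220.18 in CKO, carried the rise in that sum. Esr1 and Cited1 also had ratios above 0, and Pgr, Prlr and Foxa1, like Prom1, had ratios below 0. For Esr1 the log2 ratio was 0.20, while its deposited p-value implies 0.03 in reads. Of 8 measured basal myoepithelial markers 6 were higher and 1, Trp63, lower, with sums of 133.7 FPKM in Ctrl and at 246.7 in CKO. Sums were 18.2 and 21.7 FPKM for 8 myeloid markers, 31.4 and 34.2 for 5 endothelial, 40.3 and 42.6 for 6 fibroblast, and 1.16 and 0.81 for 4 lymphocyte markers, of which Cd3e was at 0 reads in CKO. Of 6 measured myeloid markers 1, C1qa, was higher and 1, C1qc, lower. The read intervals of C1qa (-0.15 to 2.09) and C1qc (-2.66 to 0.19) held 0. Of 5 endothelial and 4 fibroblast markers measured 0 passed in either direction. Dcn, at 25.57 FPKM in Ctrl and at 30.74 in CKO, made up most of the fibroblast sum. Under the minimum of 1 FPKM, the fibroblast genes Pdgfra (1.05 and 0.31 FPKM, read interval -2.45 to -1.10) and Lum (1.16 and 0.38 FPKM, -2.87 to -0.50) were lower in CKO. Summed levels were 33.5 and 44.2 FPKM for 2 adipocyte markers and 5.64 and 7.09 for 2 erythroid genes. Fabp4 (33.36 FPKM in Ctrl, 44.19 in CKO) and Hba-a1 (4.59 and 6.95) made up most of these sums. Plin1 (0.17 and 0.05 FPKM) and Hbb-bs (1.05 and 0.14) had lower values in CKO. The read intervals of Hba-a1, Plin1 and Hbb-bs held 0. The part of the basal or any other cell type in the annexin values was not tested.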

How the data were processed

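Bulk RNA-seq of 2 libraries, Ctrl and CKO, was analysed from 1 deposited table of 16906 genes. The submitters' processing notes name HISAT, Bowtie2, RSEM and mm10; versions are not given in the sources used here. The header names no unit. The values the authors deposited are FPKM: multiplied by the deposited length in kilobases they sum to 999609 in Ctrl and 999909 in CKO. They have 2 decimals and a lowest value of 0.01. The deposited log2 fold change equals the log2 ratio of these columns. The deposited p-value and false discovery rate are the authors' test between the libraries.

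Reads were estimated with Python 3.11.15 and scipy 1.17.1. P-values of genes at 0.01 in 1 library gave whole reads within 0.01 for 1395 of 1440 genes, with a CKO share of 0.478. A fit to 4794 p-values gave 24000000 reads in all, and left a median error of 0.121 in log10 p. The procedure was also run on simulated data. Their p-values were made with the same formula that the procedure uses. That run therefore cannot show whether the formula is that of the authors' test. With 1 library per group no test was run. A gene was called at 1.5-fold with a mean of at least 1 FPKM, or at 2-fold with 5 FPKM or more in whichever library was higher. The named genes are all members, partner genes past 1.5-fold, the leading genes of each list, and the 5 genes nearest to Anxa8; partner genes named beyond these, and the neighbours, were chosen after their values were seen. The members and lists were chosen with earlier results of these data known. Coordinates are RefSeq GRCm38.p6, matched by gene ID for 16796 genes. The microRNAs themselves were not analysed here.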

Additional observations from a re-analysis of the deposited data

How the results depend on the processing

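With 1 library per group no replicate could be left out. No paired analysis was possible because each group has 1 library. The alternatives were an added 0.1 or 1 FPKM, centring on the median of all genes, upper quartile scaling, other minimum levels, and the read ratio implied by the deposited p-value. The log2 ratio of Anxa8 ran from -1.93 to -1.53 over 5 of them, and the median over the members from 0.12 to 0.16. Anxa8 remained the 1 member past 1.5-fold and past 2-fold under each alternative run for these counts, and of 51 recomputed member ratios 0 moved beyond their counting interval and 0 called ratios changed sign. The count of partner genes lower in CKO went from 2 to 1 with 1 FPKM added, with centring and with a mean of at least 5 FPKM, since Axl then missed the rule. The count higher went from 2 to 3 with no minimum level, as Xkr8 entered. Without multiplying by length, shares of the family in Ctrl and CKO were 40.7% and 42.9% for Anxa1, 33.3% and 32.7% for Anxa2, and 9.04% and 10.4% for Anxa5, and in Ctrl 0.423% for Anxa8. Depth limits Anxa9 and Anxa8 most, with about 105 reads or fewer in 1 library.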

Other observations

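Xkr8, a scramblase gene that exposes phosphatidylserine in dying cells, was under the minimum of 1 FPKM and so outside the counts. It stood at 0.19 FPKM in Ctrl and at 0.79 in CKO, from about 6 and 24 reads, with a log2 interval of 0.80 to 3.71. It was chosen after its values were seen.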
